A study of Mus musculus with 32 samples.

Results

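Cells sorted as colonic macrophages after transfer of the same kind of monocyte graft were compared between 2 models of macrophage depletion. In one the diphtheria toxin receptor was driven by the CX3CR1 gene (CX3CR1-DTR), and in the other by the CD11c promoter (CD11c-DTR). All 6 colonic libraries of CX3CR1-DTR recipients were set against the 4 colonic libraries of CD11c-DTR recipients from day 12, so 10 of the 32 libraries of the series entered the comparison. The genes were the 24148 listed in both deposited count tables, and values are given as normalized reads, which are counts per 10000000 reads on these shared genes. The libraries measure the 3′ ends of polyadenylated RNA from sorted cell populations.

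Recipients in both groups were C57BL/6 mice whose bone marrow had been replaced, after irradiation, by marrow of a transgenic mouse, either Cx3cr1-DTR or the CD11c-DTR strain B6.FVB-Tg, which carries Itgax-DTR/GFP (line 57Lan/J). Per the study's methods, both were given diphtheria toxin at 18 ng per g of body weight on consecutive days before transfer and at 9 ng per g every other day after it, and both received bone marrow monocytes of Cx3cr1 gfp/+ donors, in which a GFP cassette replaces one copy of Cx3cr1. For all 10 libraries the labels give DAPI- CD45+ CD11b+ CD64+ Ly6C- MHCII+ as the selection marker, and the methods describe graft-derived cells as recognized by CD45.1 and GFP. The CX3CR1-DTR libraries are also labelled as GFP only. Fewer repeats are listed for this group in the methods than there are labelled libraries, no label marks a library as left out, and all were used, so the number of independent animals behind them is not known. The CX3CR1-DTR cells were collected on day 14, a day that comes from the study's methods and not from the sample labels, and the CD11c-DTR cells on day 12 in experiment 2 (replicates 1 and 2), experiment 1 (replicate 3) and experiment 3 (replicate 4). Ages at transfer were not in the labels. In such chimeras the toxin receptor is carried only by cells derived from the transplanted marrow, and radioresistant host cells are not depleted. Depletion model, day and sequencing run differed together in every library, so differences due to each cannot be told apart.

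Macrophages of the gut lamina propria are replenished from blood monocytes, which lose Ly6C and gain MHC class II and CX3CR1 as they mature in the tissue, and their restraint toward the microbiota depends on IL-10 and TGF-beta signals. Ppard encodes PPAR delta, a nuclear receptor that senses fatty acids and controls genes of fatty acid oxidation. Id1 and Id2 encode inhibitors that sequester E proteins, a class of basic helix-loop-helix transcription factors, and both are induced by BMP and TGF-beta signals through Smad proteins.

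The CD11c-DTR libraries held 1891838 to 4604348 reads on genes and the CX3CR1-DTR libraries 1223772 to 4218027. No library of either group was a copy of another. CX3CR1-DTR replicate 1 stood apart: over genes its log2 counts correlated with those of the other CX3CR1-DTR libraries at r = 0.69 to 0.71, whereas the others correlated with each other at 0.92 to 0.97 and the CD11c-DTR libraries among themselves at 0.89 to 0.94. CD11c-DTR replicate 1 was the highest of its group in several leukocyte genes, with 1656 normalized reads of Ptprc where the next library had 432. The labels do not say that replicates came from separate mice, so p-values measure only the spread between these libraries, which may be technical.

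The 2 groups differed widely. Ppard was higher in every CX3CR1-DTR library than in any CD11c-DTR library, and Id1 was higher on average and Id2 lower. Ptprc, Adgre1, Maf and Mrc1 were much lower in CX3CR1-DTR recipients, and were the largest falls of the macrophage identity list. Of the 24 tested genes of that list 11 were lower, 1 was higher and 12 were not called, Csf1r and Fcgr1 among the latter. Most cytosolic ribosomal protein genes were also lower, whereas hemoglobin genes were higher, as were single genes such as Gas6 and Npc2. Epithelial transcripts were abundant in both groups. With edgeR's quasi-likelihood test and Benjamini-Hochberg adjustment, 3051 of 10811 tested genes were higher in CX3CR1-DTR recipients (28.2%) and 3430 were lower (31.7%), so that 59.9% of the tested genes passed at an adjusted p under 0.05. Of these, 1677 genes (15.5%) were at least 2-fold higher and 3192 (29.5%) at least 2-fold lower. Every CX3CR1-DTR library lay above every CD11c-DTR library for 2236 genes (20.7%) and below for 3237 (29.9%). The median log2 fold change over all tested genes was 0.05, where positive values are higher in CX3CR1-DTR. Without CX3CR1-DTR replicate 1 the test called 3263 genes higher (30.2%) and 3946 lower (36.5%), the call of Cd68 was lost, and calls of Csf1r and Car1 were gained, while no other call of the genes named here changed. Without CD11c-DTR replicate 1 the number at least 2-fold higher dropped to 1088.

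As a yardstick, CD11c-DTR colonic libraries of day 12 were tested against the 4 libraries of day 8. Both come from the same sequencing run and the same model. By edgeR's quasi-likelihood test 0 of 10855 genes passed (0%), also with any 1 library left out, by DESeq2 1 gene passed, and 421 genes (3.88%) had an unadjusted p under 0.05. Libraries of both days come from the same 3 transfer experiments, and with experiment as a block, added after seeing the data, edgeR called 0 genes too, with 377 at an unadjusted p under 0.05. The comparison of models shares the day 12 libraries with it. The day 8 libraries were widely spread, with 261 to 3763 normalized reads of Ptprc and 5193 to 121866 of H2-Ab1. How small a change the yardstick could detect was not tested, so it does not show that no gene changed with day. The study itself reported genes that changed between these days in the colon, by Student's t test at p under 0.05.

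Base composition of the transcripts moved with the difference between the groups. Over the 10447 tested genes with a matched GENCODE transcript, the log2 fold change correlated with the GC content of the last 500 transcript bases at Spearman's rho = 0.634, and at 0.608 without CX3CR1-DTR replicate 1. Between days 12 and 8 of CD11c-DTR recipients this rho was -0.097 over 10498 genes. These are correlations across genes, which share libraries and are not replicates. In the 1045 genes with the lowest GC content (21.6 to 34.0%), the median log2 fold change was -2.90, and 82.2% were lower while 1.72% were higher. In the 1045 with the highest GC content (55.4 to 73.0%), the median was 0.80, with 59.0% higher and 6.41% lower. The pattern was present in each of the 6 CX3CR1-DTR libraries, whose reads had a mean GC content of 48.9 to 50.5%, against 46.0 to 46.8% in CD11c-DTR libraries.

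**Figure D1:**
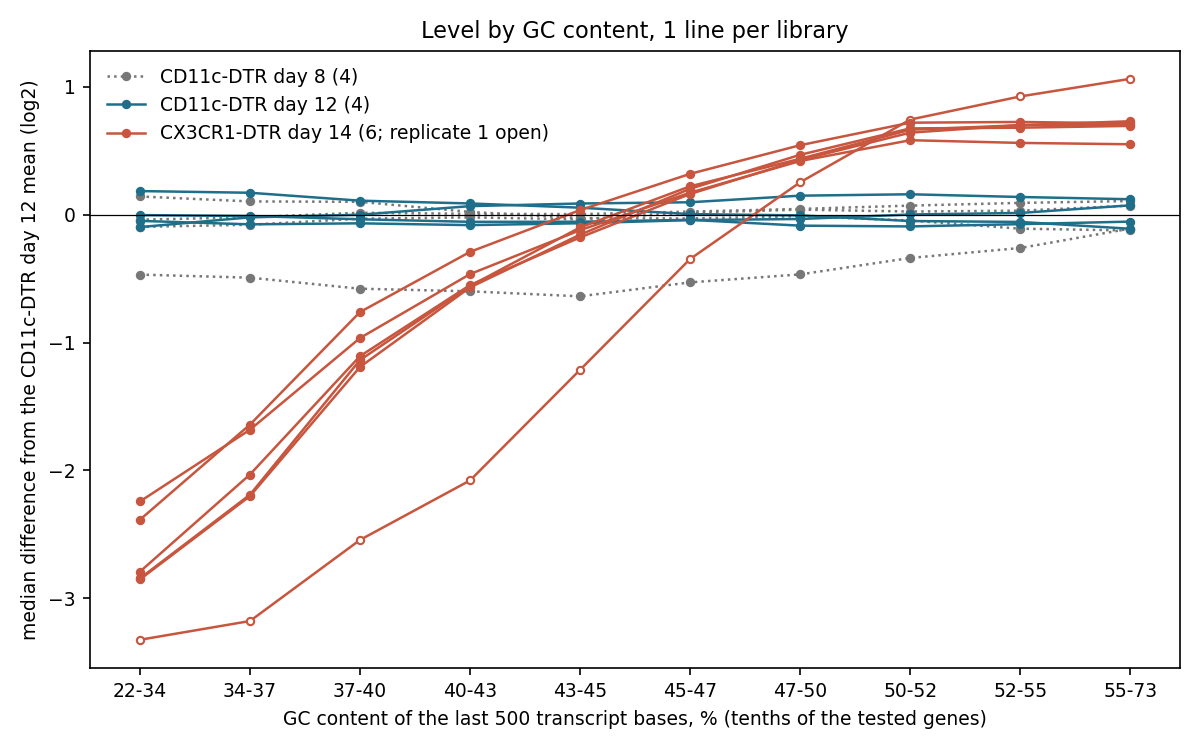
Median difference of each library from the CD11c-DTR day 12 mean (y axis, log2) in 10 equal classes of the tested genes by GC content of the last 500 transcript bases (x axis, %), with 1 line per library for CD11c-DTR days 8 and 12 and CX3CR1-DTR day 14. The 6 CX3CR1-DTR lines climb from between -3.33 and -2.24 in the lowest class to between 0.55 and 1.06 in the highest. The day 12 lines centre on 0 because they are set against their own mean. The day 8 lines lie between -0.47 and 0.14 in the lowest class and between -0.12 and 0.11 in the highest. In class 5, day 8 replicate 1 reaches -0.64.

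A second fit, chosen after seeing the data, therefore carried a GC offset per library, which removes a smooth trend with GC content. With GC offsets 2347 of 10447 genes were higher (22.5%) and 2520 lower (24.1%), and rho fell to 0.041. Of the 6278 genes called in the first fit that could be refitted, 3595 kept their call and direction, and 140 were called in the opposite direction. Leaving out CX3CR1-DTR replicate 1 as well gave 2933 higher (28.1%) and 3041 lower genes (29.1%). The part that base composition had in any single difference was not tested, so values with GC offsets are given beside most of the values below.

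Genes whose 3′ ends resemble other places of the genome also moved together. The last 500 bases of each transcript were cut into 50-base tiles and aligned to the mouse genome, and a tile counted as copied where at least 48 bases matched at more than 1 place. Among 8148 genes with no copied tile the median log2 fold change was 0.14, with 30.2% higher and 29.1% lower. In the 416 genes with 75 to 100% of tiles copied it was -2.25, with 7.93% higher and 66.3% lower, and -1.64 with GC offsets. For days 12 and 8 of CD11c-DTR recipients the median of such genes was 0.10. The study's methods state that only uniquely mapping reads were kept, and the part of read mapping in these differences was not tested.

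**Figure D2:**
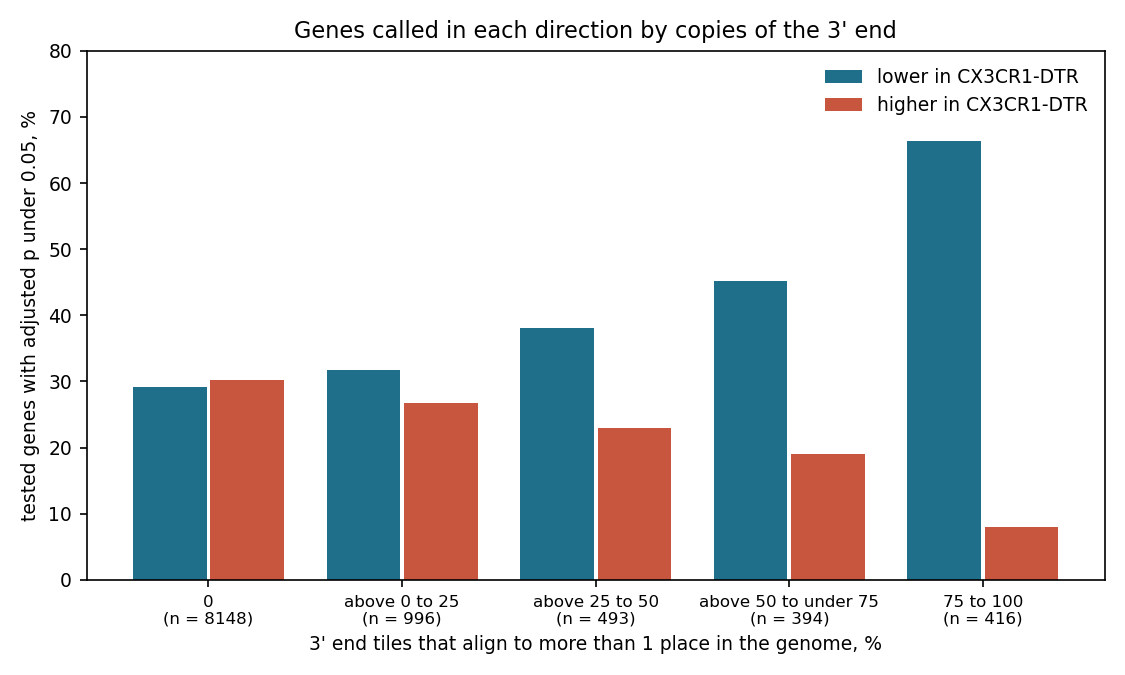
Percentage of tested genes called lower or higher in CX3CR1-DTR recipients (y axis, adjusted p under 0.05) by the share of 50-base tiles of the transcript 3′ end that align to more than 1 place in the genome (x axis). The bars for lower genes rise from 29.1% without copied tiles to 66.3% with 75 to 100% copied tiles, and those for higher genes fall from 30.2% to 7.93%.

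The last 60 coding bases of 4 genes illustrate stretches that match the genome at 1 place or at several. They are read from the NCBIM37 (mm9) assembly, with G and C in capitals and A and T in lower case. Ppard (chr17:28436735-28436794, plus strand) and Ptprc (chr1:139961083-139961142, minus strand) match the genome at 1 place with up to 2 mismatches. Rpl7 (chr1:16091809-16091868, minus strand) matches 6 places, and Gapdh (chr6:125112050-125112109, minus strand) reaches the limit of 31 places that were counted. All 4 stretches lie within a single coding exon and end with the stop codon. They are not the last 500 transcript bases from which GC content was taken. Their own GC content is 51.7% in Ppard, 55% in Ptprc, 46.7% in Rpl7 and 55% in Gapdh, so they do not show the contrast by GC content.
Ppard: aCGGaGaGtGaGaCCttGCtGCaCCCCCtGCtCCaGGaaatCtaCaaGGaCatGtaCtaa
Ptprc: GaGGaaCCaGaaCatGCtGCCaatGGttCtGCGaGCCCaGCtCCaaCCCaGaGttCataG
Rpl7: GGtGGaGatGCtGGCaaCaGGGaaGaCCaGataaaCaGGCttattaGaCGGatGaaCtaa
Gapdh: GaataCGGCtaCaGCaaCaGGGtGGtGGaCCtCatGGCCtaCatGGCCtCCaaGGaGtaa

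Ppard had 1042, 671, 1259 and 717 normalized reads in CD11c-DTR replicates 1 to 4, and 2934, 3460.2 and 4056 as the lowest, median and highest of the CX3CR1-DTR libraries. All CX3CR1-DTR libraries were above all CD11c-DTR libraries. Ppard was 3.93-fold higher in CX3CR1-DTR recipients (log2 fold change 1.98 ± 0.20, adjusted p = 6.83e-06), and higher with GC offsets (1.24 ± 0.19, adjusted p = 3.10e-04). Colonic CD11c-DTR libraries held 724 to 1205 normalized reads of Ppard on day 4 and 329.7 to 1483 on day 8, so the CX3CR1-DTR libraries were above these earlier days too. The monocyte graft had 347 to 423 normalized reads. The 3′ end of Ppard has 54.6% GC and no copied tile.

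Id1 gave 2649, 2451, 5285 and 4405 normalized reads in CD11c-DTR replicates 1 to 4 and 2869, 7082 and 8285 as lowest, median and highest in CX3CR1-DTR libraries. The groups overlapped, because CX3CR1-DTR replicate 1 lay between the 2 lower and the 2 higher CD11c-DTR libraries, while the other 5 were above all 4. Id1 was higher in CX3CR1-DTR recipients (log2 fold change 0.88 ± 0.30, adjusted p = 0.025), but in 6 of 10 fits with 1 library left out it did not pass. These were the fits without CD11c-DTR replicate 1 (0.58, adjusted p = 0.169) or 2 (0.75) and without CX3CR1-DTR replicate 2 (0.75), 3 (0.79), 5 (0.70) or 6 (0.82). Without CX3CR1-DTR replicate 1 it passed (0.93, adjusted p = 0.00277). With GC offsets it did not pass (0.54 ± 0.26, adjusted p = 0.108), and with GC offsets and no CX3CR1-DTR replicate 1 it did (0.65, adjusted p = 0.0194). Graft monocytes had 776 to 897 normalized reads of Id1, fewer than any of the 10 libraries compared.

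Id2 went the other way, with 572, 717, 899 and 572 normalized reads in CD11c-DTR replicates 1 to 4 and 16.5, 137 and 595 as the lowest, median and highest of the CX3CR1-DTR libraries. A single CX3CR1-DTR library, replicate 5, reached the level of CD11c-DTR recipients and the other 5 were below all of these. Id2 was lower in CX3CR1-DTR recipients (log2 fold change -1.71 ± 0.59, adjusted p = 0.0245). With GC offsets the estimate turned positive and did not pass (0.76 ± 0.51, adjusted p = 0.246), and the 3′ end of Id2 has 30.6% GC with 26.3% of its tiles copied. The graft had 2036 to 2811 normalized reads of Id2, above all 10 libraries compared.

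**Figure D3:**
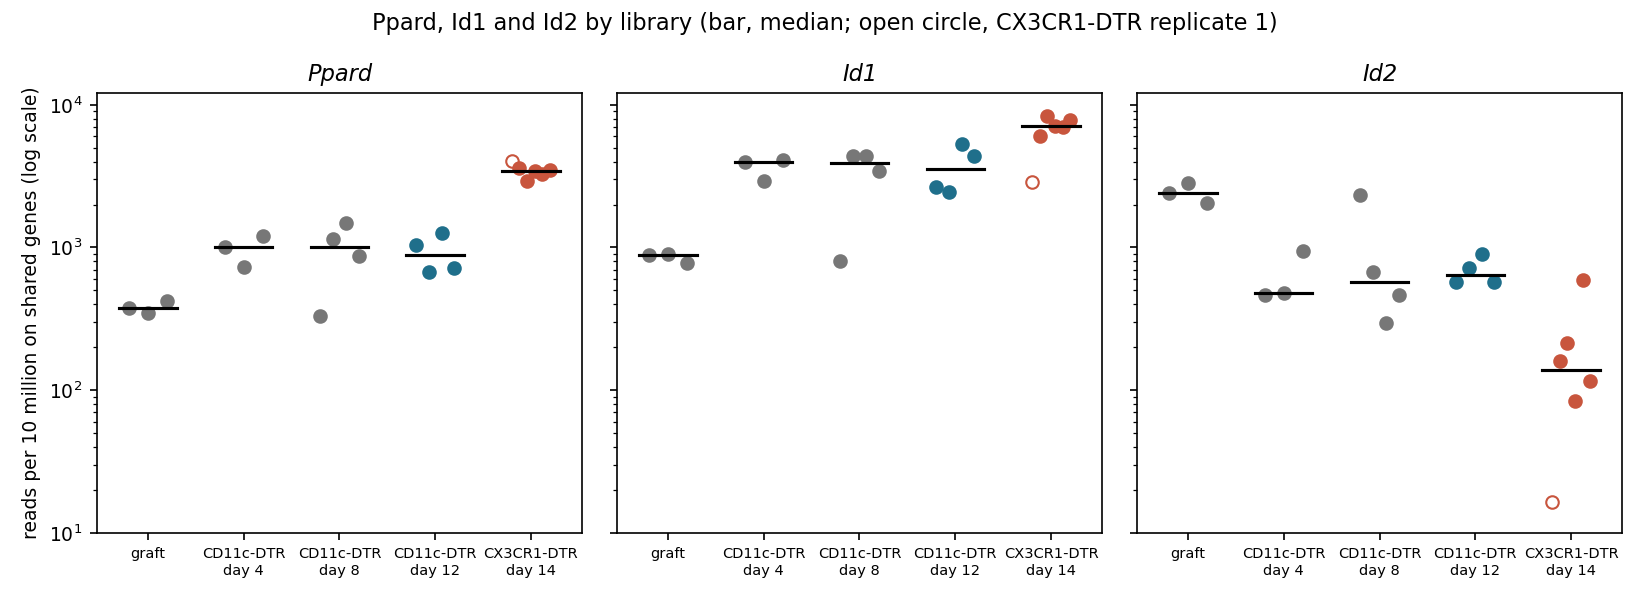
Normalized reads (log scale) of the marker genes, with 1 point per library. The groups are the graft, colonic libraries of CD11c-DTR recipients by day and those of CX3CR1-DTR recipients of day 14. Ppard is higher in all CX3CR1-DTR libraries than in any CD11c-DTR library, Id1 is higher in 5 of 6 than in all day 12 libraries, and Id2 is lower in 5 of 6.

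Among the 10 genes the study displayed for both models, 2 were higher, 3 lower and 5 not called, with a median log2 fold change of -0.17. For this and every gene list below, the shares over all tested genes to read a count against are 28.2% higher and 31.7% lower, or 22.5% and 24.1% with GC offsets. The study showed these genes as similarly expressed in both models relative to the monocyte graft. It described considerable overlap between the gene lists of the 2 models. The values here set the models directly against each other, which is a different comparison. The study chose these genes on these samples, so their direction is not independent evidence. Smad7, which encodes an inhibitory Smad that dampens TGF-beta signals, was below every CD11c-DTR library in all CX3CR1-DTR libraries (log2 fold change -1.18 ± 0.39, adjusted p = 0.019). With GC offsets Smad7 was called higher (1.55 ± 0.33, adjusted p = 0.00272), and its 3′ end has 29.2% GC. Il1b, the gene of the inflammatory cytokine interleukin 1 beta, was lower (log2 fold change -1.85 ± 0.70, adjusted p = 0.0385) but not with GC offsets (-1.44 ± 0.60, adjusted p = 0.0674). H2-Ab1 (MHC class II beta chain), Ly6c2 (the Ly6C monocyte antigen), Fcgr1 (CD64), Il10ra (the ligand-binding chain of the IL-10 receptor) and Was (the Wiskott-Aldrich actin regulator) did not pass. Log2 fold changes of Ly6c2, Fcgr1, Il10ra and Was were -0.08, -0.25, -0.07 and 0.10. H2-Ab1 had an adjusted p of 0.105 and was called lower with GC offsets (-1.70 ± 0.53, adjusted p = 0.02).

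Transcripts that define macrophages and the sort were lower in CX3CR1-DTR recipients or not called, with the exception of Cd68. In the macrophage identity list 1 of 24 tested genes was higher and 11 were lower, with a median log2 fold change of -0.76. With GC offsets 0 were higher and 14 lower. The list summed to between 26384 and 78141 normalized reads in CD11c-DTR libraries, 19203 to 34084 in CX3CR1-DTR libraries and 196230.0 to 245140.0 in the graft. In populations like these, fewer cells of a type and less RNA per cell cannot be told apart.

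Ptprc, which encodes the CD45 used in the gate, had 1656, 375, 432 and 258 normalized reads in CD11c-DTR replicates 1 to 4 and 13.8, 17.3 and 34.4 as lowest, median and highest in CX3CR1-DTR libraries. The groups lay far apart, and CD11c-DTR replicate 1 was the highest library. Ptprc was lower in CX3CR1-DTR recipients (log2 fold change -4.99 ± 0.57, adjusted p = 1.59e-05), also with GC offsets (-3.10 ± 0.59, adjusted p = 0.00116). The 2 tables count Ptprc on different RefSeq transcripts.

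Adgre1, the gene of the macrophage antigen F4/80, had 919, 193, 389 and 299 normalized reads in CD11c-DTR replicates 1 to 4 and 4.60, 8.56 and 20.7 as lowest, median and highest in CX3CR1-DTR recipients. No CX3CR1-DTR library came near a CD11c-DTR library. Adgre1 was lower (log2 fold change -5.18 ± 0.52, adjusted p = 6.43e-06), with a log2 fold change of -3.67 with GC offsets. Maf, a transcription factor of tissue macrophages (log2 fold change -5.25 ± 0.72, adjusted p = 6.33e-05), and Mrc1, the mannose receptor (log2 fold change -4.58 ± 0.57, adjusted p = 3.23e-05), were below every CD11c-DTR library too. With GC offsets their log2 fold changes were -4.57 and -1.82, and both passed.

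Cx3cr1, of which the grafted cells carry 1 intact copy, had 1047, 316, 228 and 827 normalized reads in CD11c-DTR replicates 1 to 4 and 52.8, 61.2 and 140.2 as lowest, median and highest in CX3CR1-DTR libraries. All CX3CR1-DTR libraries were lower than all CD11c-DTR libraries (log2 fold change -2.88 ± 0.46, adjusted p = 2.01e-04), and the call held with GC offsets (-2.46 ± 0.56, adjusted p = 0.00368). Itgam, which encodes CD11b, and Itgax, which encodes CD11c, were lower as well, with log2 fold changes of -1.77 (adjusted p = 0.0209) and -2.56 (adjusted p = 0.00836). Both groups of libraries overlapped for these integrin genes, and both passed with GC offsets (-1.91 and -2.98).

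Csf1r, the receptor for the macrophage growth factor CSF-1, had 6762, 1887, 1722 and 2169 normalized reads in CD11c-DTR replicates 1 to 4 and 993, 1679 and 2844 as lowest, median and highest in CX3CR1-DTR libraries. The groups overlapped apart from the high CD11c-DTR replicate 1, and Csf1r did not pass (log2 fold change -0.72 ± 0.40, adjusted p = 0.139). It did pass with GC offsets (-1.55 ± 0.40, adjusted p = 0.00757) and without CX3CR1-DTR replicate 1 (-1.02 ± 0.38, adjusted p = 0.0322). Cd68, a lysosomal glycoprotein of macrophages, was higher (log2 fold change 1.09 ± 0.40, adjusted p = 0.0348), but not with GC offsets (0.38 ± 0.38, adjusted p = 0.44) or without CX3CR1-DTR replicate 1 (0.65 ± 0.29, adjusted p = 0.0691). Mertk, a receptor for apoptotic cells, was under the filter on low values.

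**Figure D4:**
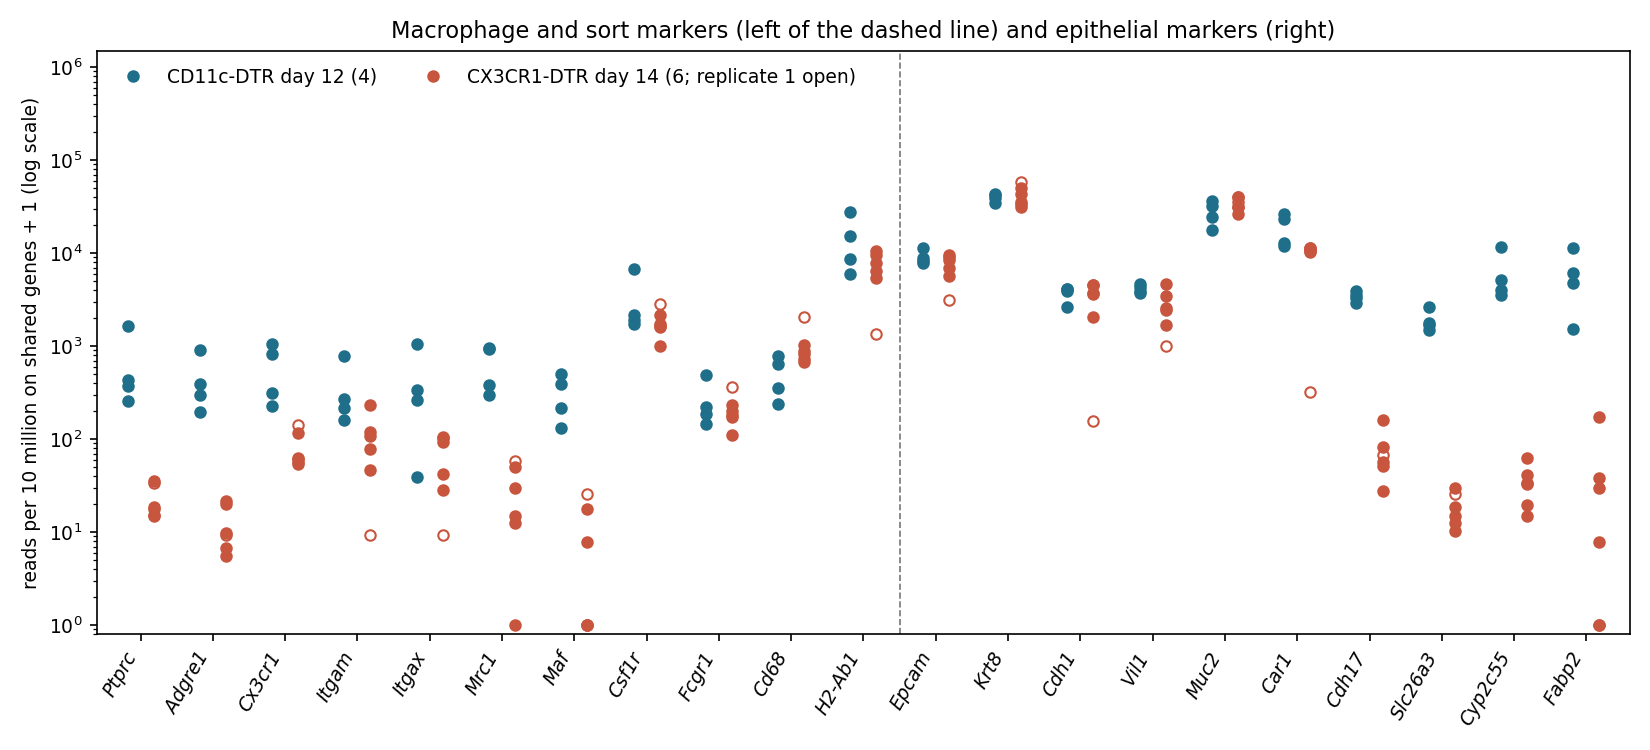
Reads per 10000000 on shared genes plus 1 (log scale), with 1 point per library, for macrophage and sort genes (left of the dashed line) and epithelial genes (right) in CD11c-DTR day 12 and CX3CR1-DTR day 14 libraries, replicate 1 of the latter open. Ptprc, Adgre1 and Cx3cr1 separate the groups without overlap, Fcgr1 and Csf1r overlap, and so do the epithelial genes Epcam, Krt8 and Muc2. The epithelial genes Cdh17, Slc26a3, Cyp2c55 and Fabp2 also separate the groups without overlap, and are lower in CX3CR1-DTR libraries.

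Of the 9 sort and graft markers, 4 were lower and 0 higher, and 5 were lower with GC offsets. Genes of MHC class II presentation were 1 of 7 lower and 0 higher, and 2 lower with GC offsets. The member called was Ciita, the transactivator of MHC class II genes (log2 fold change -1.97 ± 0.55, adjusted p = 0.00877), for which CD11c-DTR replicate 1 had 833 normalized reads and the next library of its group 156. Without CD11c-DTR replicate 1 Ciita was at -0.98 on the log2 scale and still passed. Monocyte genes had 3 tested members, none called, and they summed to between 5040.0 and 8843 normalized reads in CD11c-DTR libraries, 1064 to 6003 in CX3CR1-DTR libraries and 108504 to 124648 in the graft.

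Genes of long-lived gut macrophages had 5 tested members, of which 3 were higher and 1 lower. With GC offsets 1 was higher and 1 lower, the lower one being the member not called without offsets. Folr2, a folate receptor of tissue macrophages, had 37.4, 13.2, 72.0 and 154 normalized reads in CD11c-DTR replicates 1 to 4 and 157, 311 and 379 as lowest, median and highest in CX3CR1-DTR libraries. All CX3CR1-DTR libraries were higher, and Folr2 passed without and with GC offsets (log2 fold change 2.11 ± 0.52, adjusted p = 0.00416, and 1.51 ± 0.50, adjusted p = 0.0274). C2, a complement component (log2 fold change 1.88 ± 0.65, adjusted p = 0.0254), and Rusc2 (log2 fold change 1.25 ± 0.39, adjusted p = 0.0151) were higher but did not pass with GC offsets. Lyve1, a hyaluronan receptor of perivascular macrophages, was lower (log2 fold change -2.55 ± 0.52, adjusted p = 0.0011), with -0.26 and no call after GC offsets.

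The gate excludes epithelium, yet epithelial transcripts were prominent in both groups and close to 0 in the graft. The 14 epithelial genes summed to between 185770.0 and 239762 normalized reads in CD11c-DTR libraries and 196393 to 254038 in CX3CR1-DTR libraries, against 55.5 to 86.7 in the graft. In both groups of recipients these sums exceeded those of the macrophage identity list. Such sums depend on which genes are listed and do not measure shares of cells. The name macrophages is taken from the sort, and the share of macrophages in these libraries was not measured. In the epithelial list 4 were higher, 4 lower and 6 not called, and with GC offsets 1 was higher and 6 lower. Krt8 (keratin 8) had 34878, 39415, 42209 and 43344 normalized reads in CD11c-DTR replicates 1 to 4 and 31120.4, 39544 and 57582 as lowest, median and highest in CX3CR1-DTR libraries. The groups overlapped and Krt8 did not pass (log2 fold change 0.12 ± 0.21, adjusted p = 0.659), although it was called lower with GC offsets (-0.64). The markers Muc2 (the gel-forming mucin), Epcam and Cdh1 (adhesion molecules), Vil1 (the brush border protein villin), Cdx2 (an intestinal transcription factor) and Car1 (a colonic carbonic anhydrase) did not pass either, with log2 fold changes from -0.98 for Car1 to 0.61 for Cdx2. With GC offsets Epcam was called higher (0.78 ± 0.19, adjusted p = 0.00491), and Cdh1 was called higher when CX3CR1-DTR replicate 1 was also left out (1.45, adjusted p = 1.06e-04), while Muc2, Vil1, Cdx2 and Car1 stood at -0.26, -0.20, 0.65 and -0.63 with no call. The higher members, described after their values were seen, included the epithelial transcription factor Elf3 (log2 fold change 1.27 ± 0.26, adjusted p = 0.00117) and the tight junction genes Cldn3 (log2 fold change 1.21 ± 0.32, adjusted p = 0.00635) and Cldn7 (log2 fold change 0.64 ± 0.19, adjusted p = 0.0123), none of which passed with GC offsets. In CX3CR1-DTR replicate 1, Cdh1 had 157 and Car1 322 normalized reads, far below the other 5.

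Single genes of mature enterocytes and gut epithelium were much lower in CX3CR1-DTR recipients, although other members of their lists were higher. Slc26a3, the chloride and bicarbonate exchanger of the colonic surface, had 1763, 2619.8, 1486 and 1700.5 normalized reads in CD11c-DTR replicates 1 to 4 and 9.20, 15.8 and 28.8 as lowest, median and highest in CX3CR1-DTR libraries. The groups were far apart (log2 fold change -6.66 ± 0.32, adjusted p = 9.26e-08), with a 3′ end of 31.6% GC and -4.22 after GC offsets. Cyp2c55, a cytochrome P450 (-7.38), and of the epithelial list Fabp2, the intestinal fatty acid binding protein (-6.91), Cdh17, a cadherin of the gut (-5.42), Tspan8, a tetraspanin (-3.84), and Krt20, keratin 20 (-2.85), were also lower on the log2 scale without overlap, and passed with GC offsets. Tspan8 is counted on different transcripts in the 2 tables. Car4, a carbonic anhydrase of the luminal membrane, was higher (log2 fold change 1.05 ± 0.34, adjusted p = 0.0182), and Slc26a2, a sulfate transporter, lower (log2 fold change -0.87 ± 0.25, adjusted p = 0.00958), neither of them with GC offsets (0.77 and -0.50). In the colonic enterocyte list 2 of 8 were higher and 3 lower, and with GC offsets 0 were higher and 2 lower. Of 3 tested small intestinal enterocyte genes Fabp6, the ileal bile acid binding protein, was lower (log2 fold change -0.69 ± 0.27, adjusted p = 0.0437). With GC offsets it was at -1.34 and passed. Its level in CD11c-DTR libraries was 294 to 501 normalized reads.

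Genes of secretory and stem cells of the epithelium formed small lists with few calls. Goblet cell genes had 1 of 8 higher and 0 lower, the one being Tff3, a trefoil peptide (log2 fold change 1.16 ± 0.41, adjusted p = 0.0285), which did not pass with GC offsets. Among 5 tested enteroendocrine genes Pyy, a hormone of colonic L cells, was higher (log2 fold change 1.55 ± 0.39, adjusted p = 0.00431), and Gcg, which encodes the glucagon-like peptides of the same cells, was lower (log2 fold change -2.70 ± 0.58, adjusted p = 0.0016). Neither passed with GC offsets, where Pyy was at 0.87 and Gcg at -0.97. Axin2, a target of Wnt signalling, had 171, 112, 245 and 104 normalized reads in CD11c-DTR replicates 1 to 4 and 314, 438 and 533 as lowest, median and highest in CX3CR1-DTR libraries. It was higher in every CX3CR1-DTR library (log2 fold change 1.56 ± 0.27, adjusted p = 3.99e-04), and with GC offsets (1.85 ± 0.34, adjusted p = 0.00102). Ascl2, a transcription factor of crypt stem cells, was higher too (log2 fold change 1.62 ± 0.52, adjusted p = 0.0173), also with GC offsets (1.49, adjusted p = 0.0362), so that 2 of 3 tested stem cell genes were higher and 0 lower.

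Erythroid genes had 6 of 6 tested members higher and a median log2 fold change of 2.88, the highest of the 38 lists. All 6 are globin entries, and the red cell gene Alas2 was under the filter on low values. The list summed to between 76.8 and 942 normalized reads in CD11c-DTR libraries, 2462 to 7620 in CX3CR1-DTR libraries and 3091 to 10256 in the graft. Hba-a2, an alpha globin gene, had 64.1, 10.97, 28.8 and 68.1 normalized reads in CD11c-DTR replicates 1 to 4 and 512, 602 and 1186 as lowest, median and highest in CX3CR1-DTR libraries. All CX3CR1-DTR libraries were higher (log2 fold change 4.24 ± 0.50, adjusted p = 2.01e-05), also with GC offsets (3.54 ± 0.52, adjusted p = 2.05e-04). Hba-a1 (4.19) and the beta globin entries Hbb-b2 (2.89) and Hbb-bt (2.88) were alike. These entries overlap or are near-identical copies with almost the same counts in each library, so the alpha globin entries amount to a single measurement and so do those 2 beta globin entries.

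Markers of other cell types were higher, lower or not called without a common direction, and some were abundant. Jchain, the joining chain of plasma cell antibodies, had 8599, 1470.1, 847 and 10940.4 normalized reads in CD11c-DTR replicates 1 to 4 and 8.24, 18.4 and 117 as lowest, median and highest in CX3CR1-DTR libraries. It was lower in all CX3CR1-DTR libraries (log2 fold change -7.03 ± 0.89, adjusted p = 3.59e-05), whereas Mzb1, another plasma cell gene, was higher in all of them (log2 fold change 1.86 ± 0.46, adjusted p = 0.00435), so the 2 tested genes of this cell type moved in opposite directions. Both calls held with GC offsets (-4.67 and 1.28). Of 6 tested fibroblast genes 1 was higher and 3 were lower, and with GC offsets 2 were higher and 0 lower. The collagen gene Col3a1 (-3.63), the proteoglycan gene Dcn (-2.74) and the growth factor receptor gene Pdgfra (-1.95) were lower in the fit without GC offsets and did not pass with them. Pdgfrb, a receptor of pericytes, was higher (log2 fold change 2.39 ± 0.68, adjusted p = 0.00938), with GC offsets at 1.87 and without CX3CR1-DTR replicate 1 at 1.67, passing in both, and is counted on different transcripts in the 2 tables.

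Among 5 tested genes each of endothelium and smooth muscle, 1 each was lower, namely Kdr, a receptor for VEGF (log2 fold change -1.42 ± 0.54, adjusted p = 0.0401), and Myh11, the smooth muscle myosin (log2 fold change -2.43 ± 0.92, adjusted p = 0.0387). Kdr did not pass with GC offsets and Myh11 did (-2.69). Kit, the mast cell growth factor receptor (log2 fold change -3.08 ± 0.45, adjusted p = 1.09e-04), and Mmp9, a gelatinase of neutrophils and macrophages (log2 fold change -1.63 ± 0.63, adjusted p = 0.0406), were the sole tested genes of their lists and were lower, and with GC offsets Mmp9 passed (-1.77) and Kit did not (-0.85). For Mmp9, CD11c-DTR replicate 1 had 3189 normalized reads and the next library of its group 749, and without it the log2 fold change was -0.62 (adjusted p = 0.302). The single tested dendritic cell gene and the 2 tested genes of enteric nerve and glia were not called. T and NK cell and eosinophil lists had 0 tested members, with summed levels of at most 157 and 69.4 normalized reads in any of the 10 libraries.

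The list of TGF-beta and BMP signalling also holds Id genes and E proteins. Of its 27 tested genes 5 were higher, Id1 among them, and 12 lower, with a median log2 fold change of -0.51. With GC offsets 6 were higher, Smad7 among them, and 7 lower, and the median was 0.35. The members with the largest changes without offsets, given next, were all lower. Tgfbr2, the receptor chain that binds TGF-beta, had 668, 573, 596 and 655 normalized reads in CD11c-DTR replicates 1 to 4 and 40.3, 49.6 and 57.7 as lowest, median and highest in CX3CR1-DTR libraries. The 2 groups did not overlap and were each narrow (log2 fold change -3.63 ± 0.19, adjusted p = 1.57e-07), and the call held with GC offsets (-3.57 ± 0.26, adjusted p = 2.07e-06). Bmpr2, a BMP receptor (-3.51), Smad1, which transmits BMP signals (-3.07), and Tcf12, one of the E proteins that Id proteins bind (-4.16), were lower on the log2 scale. With GC offsets they were at -1.57, -2.34 and -1.42, and all 3 passed.

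For the lipid-sensing nuclear receptors and their targets, 7 of 22 tested genes were higher and 8 lower, and with GC offsets 2 were higher and 5 lower. Besides Ppard, whose values are given above, the members with the largest changes were lower. Cd36, a fatty acid transporter (log2 fold change -5.37 ± 0.75, adjusted p = 7.70e-05), and Abca1, which exports cholesterol (log2 fold change -5.11 ± 0.78, adjusted p = 1.44e-04), were at 0 reads in several CX3CR1-DTR libraries, and passed with GC offsets (-4.60 and -2.997). Ppargc1a, a coactivator of mitochondrial genes, was lower (log2 fold change -3.78), but is counted on different transcripts in the 2 tables. Cpt1a, the rate-limiting enzyme of mitochondrial fatty acid import and a known target of PPAR receptors, had 1239, 1281, 1331 and 1585 normalized reads in CD11c-DTR replicates 1 to 4 and 96.4, 269 and 652 as lowest, median and highest in CX3CR1-DTR libraries. It was lower in all of them (log2 fold change -2.12 ± 0.36, adjusted p = 2.87e-04), but did not pass with GC offsets (-0.97 ± 0.40, adjusted p = 0.0674).

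Genes of the IL-10 axis were 2 of 7 higher and 0 lower, and the same counts came with GC offsets. The share of higher genes was close to the 28.2% over all tested genes. Stat3, the transcription factor that IL-10 activates, had 1169.7, 965, 1333 and 1055 normalized reads in CD11c-DTR replicates 1 to 4 and 1680.5, 2274 and 3611 as lowest, median and highest in CX3CR1-DTR libraries. All CX3CR1-DTR libraries were higher (log2 fold change 1.15 ± 0.22, adjusted p = 6.46e-04), also with GC offsets (0.98, adjusted p = 0.0185). Bcl3, an inhibitor of NF-kappa B induced by IL-10, was higher as well (log2 fold change 1.60 ± 0.26, adjusted p = 2.07e-04), and by 0.82 with GC offsets.

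Inflammatory effector genes were 7 of 13 lower and 0 higher, with a median log2 fold change of -1.77, against 3 lower and 0 higher with GC offsets. The list summed to between 3916 and 20788 normalized reads in CD11c-DTR libraries and 915 to 4608 in CX3CR1-DTR libraries. Ptgs2, which encodes cyclooxygenase 2, had 1544, 145, 242 and 142 normalized reads in CD11c-DTR replicates 1 to 4 and at most 3 counts in any CX3CR1-DTR library. It was at least 35.2-fold lower, taking the CX3CR1-DTR libraries at the mean of their floors of 3 counts each (adjusted p = 4.40e-05). The bound rested on CD11c-DTR replicate 1, without which it was 11.98-fold. The chemokine genes Cxcl1 (log2 fold change -4.78 ± 0.79, adjusted p = 2.60e-04), Cxcl2 (log2 fold change -1.94 ± 0.54, adjusted p = 0.00804) and Ccl2 (log2 fold change -2.11 ± 0.54, adjusted p = 0.00528), which attract neutrophils and monocytes, were lower, and of these Cxcl1 passed with GC offsets (-2.98 ± 0.97, adjusted p = 0.0243). CX3CR1-DTR replicate 1 held 82.4 normalized reads of Cxcl1 and no other CX3CR1-DTR library more than 3 counts, so that without it Cxcl1 was at least 27.3-fold lower at the floor.

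Interferon-stimulated genes divided, with 5 of 17 higher and 9 lower, and 3 higher and 8 lower with GC offsets. The largest changes were falls. Gbp3, a guanylate-binding protein, was lower (log2 fold change -5.69 ± 0.57, adjusted p = 6.08e-06) but is counted on different transcripts in the 2 tables. Ifi203 and Ifi204, DNA-binding proteins of 1 gene cluster with 73.7% and 26.3% of tiles copied, were at least 14.2-fold and 9.90-fold lower at the floor. Ifih1, the RNA sensor MDA5, was lower (log2 fold change -4.15), also with GC offsets (-1.32, adjusted p = 0.0447).

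Immediate early and heat shock genes, which respond within minutes to handling and stress, were 3 of 25 higher and 11 lower, and 3 higher and 6 lower with GC offsets. Zfp36, which encodes the mRNA-destabilizing protein tristetraprolin, had 4700.2, 2196, 6708 and 6923 normalized reads in CD11c-DTR replicates 1 to 4 and 152, 325 and 1202 as lowest, median and highest in CX3CR1-DTR libraries. Each of the 6 CX3CR1-DTR libraries was lower (log2 fold change -3.49 ± 0.50, adjusted p = 8.67e-05), also with GC offsets (-2.61). Hsp90aa1, an inducible chaperone (log2 fold change -4.97 ± 0.44, adjusted p = 2.92e-06), and the zinc finger factor Egr2 (log2 fold change -3.17 ± 0.32, adjusted p = 6.41e-06) were lower in all of them too, and with GC offsets they were at -5.10 and -1.55 and passed. The orphan receptor Nr4a2 (log2 fold change -3.22 ± 0.42, adjusted p = 4.29e-05) was lower but did not pass with GC offsets.

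Most cytosolic ribosomal protein genes were lower in CX3CR1-DTR recipients. Of 75 tested genes 53 were lower and 6 higher, with a median log2 fold change of -2.34, and 57 were lower and 2 higher with GC offsets. Of the 35 genes with at least 75% of tiles copied, 27 were lower and 2 higher, with a median of -3.20. In the 39 genes with fewer copied tiles 26 were lower and 4 higher, with a median of -1.58. The list summed to between 703140.0 and 1025600.0 normalized reads in CD11c-DTR libraries and 555147 to 749887 in CX3CR1-DTR libraries.

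Rpl7, a protein of the large ribosomal subunit, had 7440.2, 10216, 5659 and 9711 normalized reads in CD11c-DTR replicates 1 to 4 and 4.60, 9.88 and 57.6 as lowest, median and highest in CX3CR1-DTR libraries. It was almost absent from all of the latter (log2 fold change -8.46 ± 0.53, adjusted p = 3.72e-07), also with GC offsets (-8.35), and 94.7% of its tiles are copied. Rps23 of the small subunit (-7.33, 100.0% copied), Rpl39 (-6.92, 63.2% copied) and Rpl28 (-6.66, 84.2% copied) were the next largest falls on the log2 scale. Because reads of such genes can belong to near-identical copies, their counts are uncertain in both tables.

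Clustered histone genes were 29 of 64 lower and 3 higher, with a median of -0.46, and 31 lower and 2 higher with GC offsets. Among the 13 tested histone genes with no copied tile, 2 were higher and 1 was lower with GC offsets, with a median of 0.21. The lower one was Hist1h2ai (log2 fold change -3.80 ± 0.34, adjusted p = 2.99e-06, and -3.002 with GC offsets). Tiles and GC content were read from a matched GENCODE transcript, whose end may differ from that of the counted RefSeq transcript. The GC content used was 40.6% for Hist1h2ai but 63.6 to 68.4% for Hist1h2af, Hist1h2ag and Hist1h2ah. Whether reads counted for Hist1h2ai can belong to copies was therefore not tested. The near-identical Hist1h2af, Hist1h2ag and Hist1h2ah, with at least 68.4% of tiles copied, were lower, with log2 fold changes of -4.25, -4.08 and -3.93. Of 22 cell cycle genes 5 were higher and 8 lower, and 6 higher and 7 lower with GC offsets. Pcna, the sliding clamp of DNA replication (log2 fold change -6.33 ± 0.45, adjusted p = 7.88e-07, 73.7% of tiles copied), Hmga1, a chromatin protein (log2 fold change -4.39 ± 0.36, adjusted p = 1.58e-06, 94.7% copied), and Mcm4, a subunit of the replicative helicase (log2 fold change -4.11 ± 0.57, adjusted p = 7.05e-05, none copied), were lower. With GC offsets they were at -4.14, -5.08 and -1.62, and passed. Bub1, a kinase of the spindle checkpoint, was at least 5.56-fold lower at the floor, and is counted on different transcripts in the 2 tables.

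Genes of energy metabolism were higher, lower or not called. Those named below were picked for the largest changes of their lists, and all of them were lower. Of 75 tested genes of oxidative phosphorylation 21 were higher and 16 lower, with a median of 0.14, and 10 higher and 18 lower with GC offsets. Without offsets the share of higher genes was close to the 28.2% over all tested genes, and that of lower genes was under the 31.7%. Uqcrc2, a core subunit of complex III with no copied tile, had 5939, 4932, 5481 and 5315 normalized reads in CD11c-DTR replicates 1 to 4 and 11.5, 37.2 and 408 as lowest, median and highest in CX3CR1-DTR libraries. The 6 CX3CR1-DTR libraries were all lower (log2 fold change -5.56 ± 0.77, adjusted p = 7.03e-05), also with GC offsets (-3.51), although replicate 2 was well above the other 5. Sdhd, a membrane anchor of complex II, was also lower (log2 fold change -5.00 ± 0.72, adjusted p = 8.80e-05), as were Atp5g2 (-6.81) and Uqcrb (-6.29), which have 100.0% and 89.5% of tiles copied. In glycolysis and hypoxia 7 of 16 genes were higher and 5 lower, and 3 higher and 5 lower with GC offsets. Gapdh (log2 fold change -4.26 ± 0.26, adjusted p = 3.39e-07), Pgk1 (-4.80) and Pgam1 (-7.54), which are glycolytic enzymes, each have at least 94.7% of tiles copied. Hif1a, the oxygen-regulated transcription factor, has none and was lower (log2 fold change -4.38 ± 0.40, adjusted p = 3.28e-06). With GC offsets Gapdh was at -4.96 and Hif1a at -2.34, and both passed.

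In cholesterol synthesis 6 of 13 genes were higher and 3 lower, and 5 higher and 2 lower with GC offsets. The higher members, described after their values were seen, included Srebf2, the transcription factor that induces the pathway (log2 fold change 1.63 ± 0.21, adjusted p = 4.08e-05), and Mvd, a decarboxylase of the mevalonate branch (log2 fold change 1.34 ± 0.32, adjusted p = 0.00357), of which Srebf2 passed with GC offsets (0.88) and Mvd did not (0.58). Sqle, squalene epoxidase, was lower (log2 fold change -5.47 ± 0.48, adjusted p = 2.56e-06, and -5.01 with GC offsets), and Idi1, an isomerase of the isoprenoid pathway with 94.7% of tiles copied, was at least 41.9-fold lower at the floor. Cyp51, the sterol demethylase, was lower (log2 fold change -2.01 ± 0.28, adjusted p = 7.27e-05) but at 0.21 with GC offsets, with no call.

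Genes for uptake of apoptotic cells were 3 of 9 higher and 2 lower, with the same counts with GC offsets, shares near those over all tested genes. The list summed to between 5297 and 9622 normalized reads in CD11c-DTR libraries and 10844 to 19631 in CX3CR1-DTR libraries. Gas6, a ligand that bridges phosphatidylserine to the TAM receptors, had 3141, 2942, 4859 and 5374 normalized reads in CD11c-DTR replicates 1 to 4 and 7431, 10268 and 11889 as lowest, median and highest in CX3CR1-DTR libraries. Every CX3CR1-DTR library was higher (log2 fold change 1.36 ± 0.23, adjusted p = 2.74e-04), also with GC offsets (0.86 ± 0.23, adjusted p = 0.0087). Tyro3, one of these receptors, was higher at lower levels (log2 fold change 1.32 ± 0.24, adjusted p = 4.60e-04), and Itgav, the alpha v integrin, was lower (log2 fold change -3.59 ± 0.47, adjusted p = 4.61e-05). With GC offsets they were at 0.74 and -1.27 and passed.

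Lysosomal genes were 6 of 16 higher and 5 lower, and 4 higher and 3 lower with GC offsets, against 28.2% and 31.7% of all tested genes in the fit without offsets. Npc2, which carries cholesterol out of the lysosome, had 5181, 3254, 5867 and 4195 normalized reads in CD11c-DTR replicates 1 to 4 and 10812, 12419 and 15944 as lowest, median and highest in CX3CR1-DTR libraries. It was higher in every CX3CR1-DTR library (log2 fold change 1.55 ± 0.21, adjusted p = 5.50e-05), also with GC offsets (1.21 ± 0.20, adjusted p = 4.60e-04). Lipa, the lysosomal acid lipase (log2 fold change -2.17 ± 0.40, adjusted p = 5.98e-04), and Gusb, beta-glucuronidase (log2 fold change -2.06 ± 0.44, adjusted p = 0.00166), were lower, and both passed with GC offsets. Lamp2 was lower (log2 fold change -5.71) but is counted on different transcripts in the 2 tables.

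Gut transcription factors were 5 of 15 higher and 7 lower, and 6 higher and 3 lower with GC offsets. Foxa1, a pioneer factor of endoderm, was lower (log2 fold change -4.06 ± 0.57, adjusted p = 7.76e-05) and passed with GC offsets. Gata6, a regulator of gut epithelium, was lower (log2 fold change -1.36 ± 0.24, adjusted p = 4.56e-04) and turned higher with GC offsets (1.14 ± 0.22, adjusted p = 0.00119), where its 3′ end has 31.4% GC.

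**Figure D5:**
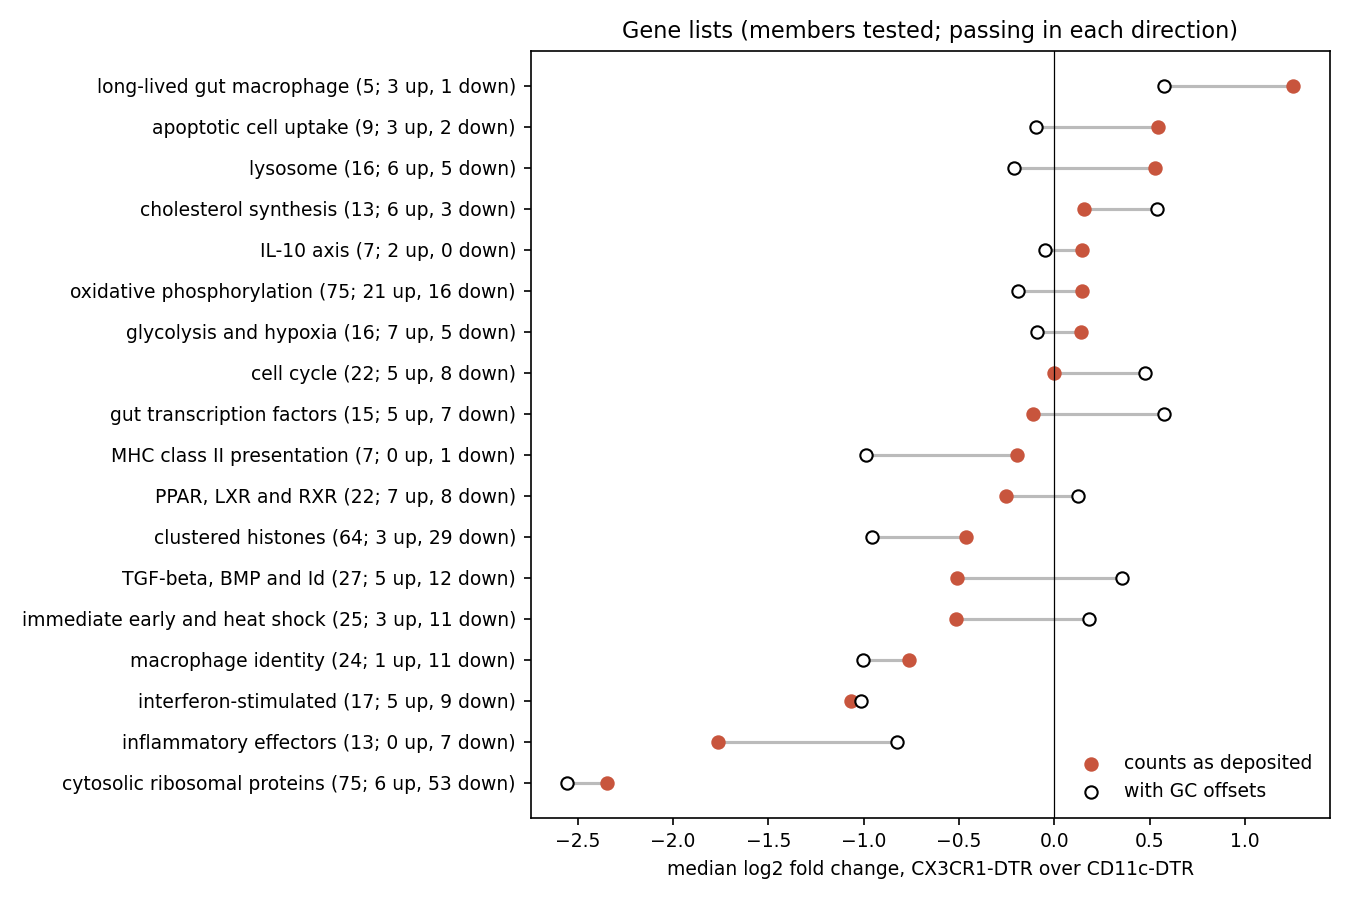
Median log2 fold change, CX3CR1-DTR over CD11c-DTR, of the tested members of 18 gene lists, from the counts as deposited (filled) and with GC offsets (open), with the number of members tested and passing in each direction beside each name. Cytosolic ribosomal protein genes lie lowest, at -2.34 and -2.56, and several lists, such as TGF-beta, BMP and Id, change sign with GC offsets.

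The largest rises among genes with at least 200 normalized reads and no overlap were led by 3 microRNA entries, Mir3091 (5.61), Mir7051 (5.14) and Mir7067 (4.83). Reads on such short entries cannot be told apart from those of an overlapping transcript, so these values are uncertain and have no GC value. Alpha globin came next. Man2b2, a mannosidase of the lysosome, had 37.4, 6.58, 14.4 and 20.7 normalized reads in CD11c-DTR replicates 1 to 4 and 124, 165 and 445 as lowest, median and highest in CX3CR1-DTR libraries. Each CX3CR1-DTR library was higher (log2 fold change 3.51 ± 0.53, adjusted p = 1.42e-04), with replicate 1 highest. Npas2, a circadian transcription factor related to Clock, had 48.1, 37.3, 60.5 and 47.4 normalized reads in CD11c-DTR replicates 1 to 4 and 157, 332 and 524 in CX3CR1-DTR libraries. Each of the 6 CX3CR1-DTR libraries was higher (log2 fold change 2.90 ± 0.33, adjusted p = 1.77e-05), and more so with GC offsets (4.16). Hr, a corepressor of nuclear receptors (log2 fold change 3.29 ± 0.40, adjusted p = 2.51e-05), Phf21b, a PHD finger protein (log2 fold change 3.12 ± 0.48, adjusted p = 1.44e-04), and Tmprss13, a membrane serine protease (log2 fold change 2.96 ± 0.52, adjusted p = 4.28e-04), completed these 10, and all passed with GC offsets.

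The largest falls were of genes that CX3CR1-DTR libraries hardly held. Gm8979, Ces2d-ps and Rn4.5s had 0 reads in all 6 CX3CR1-DTR libraries, and 703 to 1068, 659.5 to 881 and 222 to 963 normalized reads in CD11c-DTR libraries. Against the floor of 3 counts per library they were at least 63.7-fold, 52.7-fold and 32.7-fold lower. Gm8989 had reads in 1 CX3CR1-DTR library only (log2 fold change -8.58 ± 0.59, adjusted p = 6.69e-07). These are a predicted gene pair with all tiles copied, a carboxylesterase pseudogene and a repeated small RNA, so their counts are uncertain.

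Srp54a and Srp54c, copies of the gene for a signal recognition particle subunit with all tiles copied, were at least 70.3-fold and 31-fold lower, and Gstp2, a glutathione transferase with a near-identical neighbour, at least 215-fold. Rbm3, a cold-induced RNA-binding protein (at least 80.0-fold lower), Mia2, an organizer of endoplasmic reticulum exit sites (at least 68.3-fold lower), and Emp1, an epithelial membrane protein (at least 198-fold lower), have no copied tile. All 3 are counted on different RefSeq transcripts in the 2 tables, as are 1943 of the shared genes (8.05%). Each of these 10 falls passed by edgeR's quasi-likelihood test with an adjusted p of at most 8.25e-05.

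Some of these calls rested on single libraries. Of the 118 called genes that the naming rule picks, 103 kept the call with any 1 of the 10 libraries left out. The other 15 did not, of which Id1 is described above. The rule favours large differences, so these counts are not a rate for all tested genes. The log2 fold changes below are those without the library named. Ascl2 did not pass without CD11c-DTR replicate 1 or 2 or CX3CR1-DTR replicate 5 (log2 fold change 1.21 to 1.36). C2 did not pass without CD11c-DTR replicate 1, 2 or 3 or CX3CR1-DTR replicate 2 (log2 fold change 1.48 to 1.75). Car4 did not pass without CD11c-DTR replicate 1, 3 or 4 (log2 fold change 0.81 to 0.96). Fabp6 did not pass without CD11c-DTR replicate 2 or 4 or CX3CR1-DTR replicate 3, 4 or 6 (log2 fold change -0.69 to -0.52). Il1b did not pass without CD11c-DTR replicate 1 or 3 or CX3CR1-DTR replicate 4 or 6 (log2 fold change -1.99 to -1.24). Itgam did not pass without CD11c-DTR replicate 1 (log2 fold change -1.24). Kdr did not pass without CD11c-DTR replicate 2, 3 or 4 or CX3CR1-DTR replicate 3, 4 or 6 (log2 fold change -1.51 to -1.18). Mmp9 did not pass without CD11c-DTR replicate 1 or CX3CR1-DTR replicate 3, 4 or 6 (log2 fold change -1.75 to -0.62). Myh11 did not pass without CD11c-DTR replicate 3 or 4 or CX3CR1-DTR replicate 3, 4 or 6 (log2 fold change -2.52 to -2.06). Pdgfra did not pass without CD11c-DTR replicate 2 or 3 or CX3CR1-DTR replicate 4 or 6 (log2 fold change -1.97 to -1.54). Rusc2 did not pass without CD11c-DTR replicate 1 or 2 (log2 fold change 0.94 to 1.117). Tff3 did not pass without CD11c-DTR replicate 1 or CX3CR1-DTR replicate 2 or 5 (log2 fold change 0.80 to 1.01). Id2 did not pass without CD11c-DTR replicate 2 (-1.67) or CX3CR1-DTR replicate 6 (-1.60), and Cd68 did not without CD11c-DTR replicate 2 or 3 or CX3CR1-DTR replicate 1, 2 or 5 (0.65 to 1.00). Vil1 was called lower without CX3CR1-DTR replicate 2 (-0.99), and Csf1r without CD11c-DTR replicate 3 (-1.10).

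The fold change of 49 of these 118 genes moved by over 1.5 times when 1 library was left out. CX3CR1-DTR replicate 5 accounted for 26 of them, all of which were lower genes that fell further without it. Without it a lower log2 fold change was fitted for Cdh17 (-6.02), Fabp2 (-8.56), Foxa1 (-5.25), Gcg (-3.41), Hsp90aa1 (-5.68), Id2 (-2.66), Jchain (-8.25) and Pcna (-7.09), and likewise for Ppargc1a (-4.60), Rpl39 (-7.94), Rpl7 (-9.48), Sdhd (-6.42), Smad1 (-3.78), Sqle (-6.44), Tspan8 (-4.70) and Uqcrb (-7.40). For Abca1, Cd36, Gbp3, Gm8989, Hist1h2af, Lamp2, Maf, Mcm4, Pgam1 and Ptgs2 no other CX3CR1-DTR library had more than 3 counts. Leaving out CX3CR1-DTR replicate 2 gave log2 fold changes further from 0 for Col3a1 (-5.07), Dcn (-3.45), Ifih1 (-4.81), Kdr (-2.04), Myh11 (-3.83), Pdgfra (-2.87), Uqcrc2 (-6.74) and Zfp36 (-4.23). CX3CR1-DTR replicate 1 mattered for Mir7051 (4.47) and Pdgfrb (1.67), which were closer to 0 without it. Without CD11c-DTR replicate 1 Ciita (-0.98), Cxcl2 (-1.34), Il1b (-1.24), Itgax (-1.78), Mmp9 (-0.62) and Ptprc (-4.25) were closer to 0. Without CD11c-DTR replicate 4 C2 (3.36) and Folr2 (2.91) were further from 0 and Cd36 (-4.61) and Jchain (-6.44) closer.

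The range of the earlier days bears on how far the groups lay apart. For 1592 genes (14.7%) every CX3CR1-DTR library was above all 11 colonic CD11c-DTR libraries of days 4, 8 and 12, and for 2476 genes (22.9%) every one was below all of them. Many named genes were picked for large or non-overlapping differences, so their counts follow in part from that choice. Of the genes named here, 18 were above this range, among them Ppard, Folr2, Gas6, Npc2, Axin2, Mzb1 and Npas2. A further 66 were below it, among them Smad7, Ptprc, Adgre1, Maf, Mrc1, Cx3cr1, Tgfbr2, Ptgs2, Zfp36, Slc26a3 and Rpl7. The other 48 fell within it for at least 1 library, and these include Id1, Id2, Il1b, Csf1r, Cd68, Stat3 and Epcam.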

How the data were processed

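RNA of sorted colonic cells was compared between 6 CX3CR1-DTR and 4 CD11c-DTR libraries. The authors prepared 3′ libraries with a derivation of MARS-seq, aligned reads to NCBI37/mm9 with HISAT 0.1.6, kept uniquely mapping reads and counted sense reads on exons with HOMER. The deposited values are raw counts per gene in 2 tables of 24411 and 24421 genes. A HOMER version and any collapse of molecular identifiers are not given in the sources used here. A further 52 columns carry no sample name and were not used. Members and gene lists were chosen with earlier results of these data known.

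The 24148 shared genes were used, with library size taken as reads on them. The 10811 genes that reached 50 normalized reads in 4 or more libraries were tested with edgeR 4.0.16 in R 4.3.3 (TMM, glmQLFit, glmQLFTest), with Benjamini-Hochberg adjustment at 0.05. Errors (SE) of log2 fold changes were derived from the F statistic of each gene. Alternatives used DESeq2 1.42.0, limma 3.58.1, other filters and scalings, and libraries left out. After seeing the data, GC offsets (lowess, span 0.3, of each library's deviation against GC content of the last 500 bases), genes without copied 3′ ends (minimap2 2.31-r1302) and genes counted on the same transcript were added. On simulated data without a GC trend the test recovered 95% of 4-fold changes but 23% of 2-fold changes. In another simulation a straight-line trend with GC content, the same in every library, was added to 1 group. There the fit without offsets also called many unchanged genes, and the fit with offsets few. The fit with offsets recovered 91.5% of 4-fold and 16.7% of 2-fold changes. The trends in the data were not straight lines.

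Named genes are the study's markers, the 10 largest rises and falls with no overlap and a mean of 200 or more normalized reads in the higher group, up to 4 called genes per list with the largest change, and defining markers of the sort and the epithelium. Some genes that this rule picks are not reported here. Dates in the labels gave the experiment of each CD11c-DTR library. A floor is 3 counts, which is 7.19 to 24.7 normalized reads in CX3CR1-DTR libraries, and it covers counting error only.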

Additional observations from a re-analysis of the deposited data

Results flagged for a closer look

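Values of the named genes, and of depth and base composition, were searched for a single library that lay apart from the others of its group. Of 258 groups of values 44 were singled out. The criterion would single out about 1 in 20 groups of independent, normally distributed values. Reads are skewed and the genes share libraries, so this rate does not apply here. What sets each library apart was not tested.

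CD11c-DTR replicate 1 lay apart as the highest of its group in 7 genes of immune function, compared with the next library, and it was also the highest in others, such as Adgre1, Il1b and Mmp9, without being singled out. It had 1656 against 432 normalized reads of Ptprc, 6762 against 2169 of Csf1r, 833 against 156 of Ciita, 1544 against 242 of Ptgs2, 523 against 216 of Gbp3, 267 against 121 of Ifi204, and 326 against 151 of Nr4a2. CD11c-DTR replicate 2 was highest in Hist1h2ah (1139 against 539) and Gapdh (2670.2 against 1967), and replicate 3 in Smad7 (827 against 714). CD11c-DTR replicate 4 was highest in C2 (77.0 against 14.4) and Cd36 (347 against 101), and lowest in the epithelial genes Cdh1 (2625 against 3943) and Cdx2 (794 against 1512).

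CX3CR1-DTR replicate 1 had the highest mean GC content over its reads, 50.5% against 49.3% in the next library. It was the highest in Mir7051 (808 against 259 normalized reads), Man2b2 (445 against 177), Phf21b (660 against 340.3), C2 (190 against 103), Cxcl1 (82.4 against 8.87), and Cd68 (2053 against 1016), and the lowest in Car1 (322 against 10167).

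CX3CR1-DTR replicate 2 was the highest in Ciita (124 against 69.5), Cpt1a (652 against 289), Zfp36 (1202 against 371), Nr4a2 (39.9 against 19.2) and Uqcrc2 (408 against 146), and in the connective tissue and muscle genes Col3a1 (302 against 74.3), Pdgfra (79.9 against 27.5) and Myh11 (399 against 138). CX3CR1-DTR replicate 5 was the highest in many genes that were lower in its group, namely Id2 (595 against 214), Gm8989 (14.4 against 0), Rpl39 (101 against 33.0), Hist1h2af (88.7 against 13.8), Uqcrb (146 against 33.0), Sdhd (580.3 against 146), Gapdh (175 against 109), Sqle (40.8 against 13.8), Foxa1 (98.3 against 25.9), Fabp2 (173 against 36.8), Tspan8 (249 against 89.2), Fabp6 (372 against 227) and Jchain (117 against 39.9), and in the higher gene Pyy (8805 against 5000.1).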

How the results depend on the processing

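In the counts as deposited 3051 genes were higher and 3430 lower. GC offsets on the 8148 genes without copied tiles gave 1882 higher and 1745 lower, and 2130 lower without CX3CR1-DTR replicate 1, fewer genes being tested. A filter of 200 normalized reads gave 2135 lower, and leaving out CD11c-DTR experiment 2 gave 1999 higher. At least 2-fold higher were 907 genes with the filter of 200 and 1045 on genes with the same transcript in both tables, instead of 1677. At least 2-fold lower were 1900 with the filter of 200, 1527 with GC offsets on genes without copied tiles and 1645 on these without CX3CR1-DTR replicate 1, instead of 3192. Leaving out 1 library at a time gave 2089 to 3263 higher, 3181 to 3946 lower, 1088 to 1656 at least 2-fold higher (lowest without CD11c-DTR replicate 1) and 3049 to 3406 at least 2-fold lower. DESeq2 shifted the median of all genes by -0.18 and called 1 gene between days 8 and 12. A replicate block gave 2936 higher and 3431 lower, and since same-numbered libraries come from different recipients and runs, with correlations of deviations of -0.10 and 0.0015, the numbers do not pair them.

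Ppard passed in every alternative, at 1.81 to 2.01 with 1 library left out. Id1 did not pass with GC offsets (0.54, and 0.54 without copied tiles), whole-transcript GC offsets (0.39), the filter of 200 (0.70), the same transcript (0.72), thinning to equal depth (0.71) or without experiment 2 (0.52), and ranged from 0.58 to 0.99 with 1 library left out, 6 of the 10 fits ending the call. Id2 turned to 0.76 with GC offsets, 0.38 with whole-transcript offsets and 0.95 with GC offsets and no CX3CR1-DTR replicate 1. It did not pass without experiment 2 (-1.77), and ranged from -2.66 to -1.55 with 1 library left out, where leaving out CD11c-DTR replicate 2 or CX3CR1-DTR replicate 6 ended the call.

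Estimates of 17 other named genes changed sign. With GC offsets, and then also without CX3CR1-DTR replicate 1, these were Cdh1 (1.22 and 1.45), Cyp51 (0.21 and 0.073), Epcam (0.78 and 0.77), Gata6 (1.14 and 1.13), Kdr (0.44 and 0.49), Krt8 (-0.64 and -0.70), Muc2 (-0.26 and -0.28), Pdgfra (0.12 and 0.22) and Smad7 (1.55 and 1.72), and without replicate 1 alone among these also Cxcl2 (0.0122, and 0.0119 without copied tiles) and Was (-0.21). On genes without copied tiles the values of Cdh1, Epcam, Gata6, Kdr, Muc2, Pdgfra and Smad7 were equal to these. With whole-transcript GC offsets Car1 (0.70), Cdx2 (-0.12), Krt8 (-0.56), Ly6c2 (0.16), Slc26a2 (0.89) and Was (-0.49) changed sign. Uncalled genes near 0 also did so. Krt8 was at -0.044 with DESeq2, -0.060 with the filter of 200, -0.051 on the same transcript, -0.045 after thinning, and -0.12 to 0.17 with 1 library left out. Was was at -0.060 with DESeq2, -0.063 on the same transcript, -0.087 after thinning, and -0.27 to 0.33 with 1 library left out. Il10ra was at 0.20 with limma-voom, 0.094 with the replicate block, 0.015 without experiment 2 and -0.35 to 0.15 with 1 library left out. Fcgr1 was at 0.27 without experiment 2 and -0.56 to 0.052 with 1 library left out, and Ly6c2 at -0.40 to 0.078 with 1 library left out. Causes of these changes were not tested.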
